A study of Mus musculus with 178 samples.

Results

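Blood of mice with stable disease was compared with blood of mice whose tumors progressed, both on Day 17 after the tumor cells were implanted and under anti-PD-1 treatment. The count table holds 178 libraries, and 30 of them form this comparison: library numbers 119 to 133 are the 15 mice with stable disease, and library numbers 104 to 118 are the 15 progressing non-responders. GEO's labels call nearly all of these mice non-responders without telling the 2 kinds apart, and the split follows the group that the study's source data assign to each mouse. All animals were C57BL/6J mice of 6–8 weeks with 4MOSC1 cells, a carcinogen-induced oral carcinoma line of the same strain, injected into the tongue or the buccal mucosa, and all received the same antibody (clone RMP1-14, intraperitoneally every 3 days). No untreated animals, no tumor-free animals and no second tumor line entered the comparison. Each of these mice gave 1 library per day, except that the mouse of library 118 had none on Day 4. The methods and the study's figure legend differ on the day of the first dose, but both place Day 4 before treatment and Days 9, 17 and 24 on treatment. The GEO label of library 104 reads responder, against non-responder for that animal's libraries of Days 4, 9 and 24, so values are also given without it. The mouse of library 118 is listed as stable disease on Day 24 alone in the source data. It was kept with the progressing mice on Days 9, 17 and 24, and the progressing group of Day 4 was without it.

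Blockade of PD-1, an inhibitory receptor of activated lymphocytes, releases T cells from a brake that tumors exploit through its ligands. Stable disease is a tumor that neither shrinks nor grows past the limits of the response criteria, so it lies between response and progression. In whole blood, messenger RNA of red cells and platelets stands beside that of neutrophils, monocytes, T cells, NK cells and B cells, and a bulk library reads all of them at once. Fewer cells of a type and less RNA per cell cannot be told apart in such a library.

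Total counts ran from 49485662 to 71013189 in stable disease and from 31837389 to 69141070 in progressing mice. The stable libraries were deeper (means of 57150500 and 47887500, two-sided permutation test, p = 0.00358, adjusted p = 0.0251 over 7 library measures). Haemoglobin genes took 78.3 to 86.7% of the counts in stable disease and 77.1 to 86.1% in progressing mice, with no difference past the threshold (81.9% and 81.3%, permutation p = 0.478). The scaling factor of edgeR's TMM method (p = 0.147) and the number of genes with a count (p = 0.988) did not pass it either. Xist, the RNA of the inactive X chromosome, was at 79.8 to 190 CPM (the count scaled to the size of the library) in stable disease and 84.0 to 183 in progressing mice, and no Y-linked gene of the list passed the filter on low counts. The paper reports that male and female mice were used, whereas no library of this comparison lacked Xist. The first component of the 30 libraries held 18.1% of the variance and was led at its low end by collagen and mucosal genes (Col3a1, Col1a1, Muc4, Krt13). Library 120 of the stable group stood farthest out at -55.5. The remaining stable libraries lay between -29.0 and 24.4, and the progressing ones between -17.4 and 28.0. Libraries of mice with 4-digit ear tags all scored -14.4 or lower, as did library 116 (-17.2), of a mouse with a 3-digit tag.

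The whole-transcriptome comparison separated the groups at a single gene. Of 12198 genes tested with edgeR's quasi-likelihood test, 1 passed an adjusted p of 0.05 (0.0082% of the genes tested): Scand1 was lower in stable disease. None was higher. The call depended on the setting: no gene was called with a covariate for transcript length or without 4 progressing libraries (both described with the length values). None was called among mice with 3-digit or with 4-digit ear tags either. These subsets hold fewer libraries per group, and the Scand1 difference in them was near that of all mice. A filter of at least 10 counts in every library also gave no call, but it drops Scand1 before testing (lowest stable count of 2). DESeq2 called 11 genes. The count was 3 without progressing library 106 and 2 without stable library 120, 124 or 132. At an unadjusted p under 0.05 there were 1250 genes (10.2%), of which 585 were higher (4.8%) and 665 lower (5.45%) in stable disease, and the median log2 difference over all genes was -0.0031. The errors were small for most genes: the median standard error was 0.082 on the log2 scale, and the 95% interval of the difference stayed within a 1.5-fold change in either direction for 10888 genes (89.3%) and within a 2-fold change for 12034 genes (98.7%). Only 75 genes had an estimated difference of 1.5-fold or more.

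**Figure D1:**
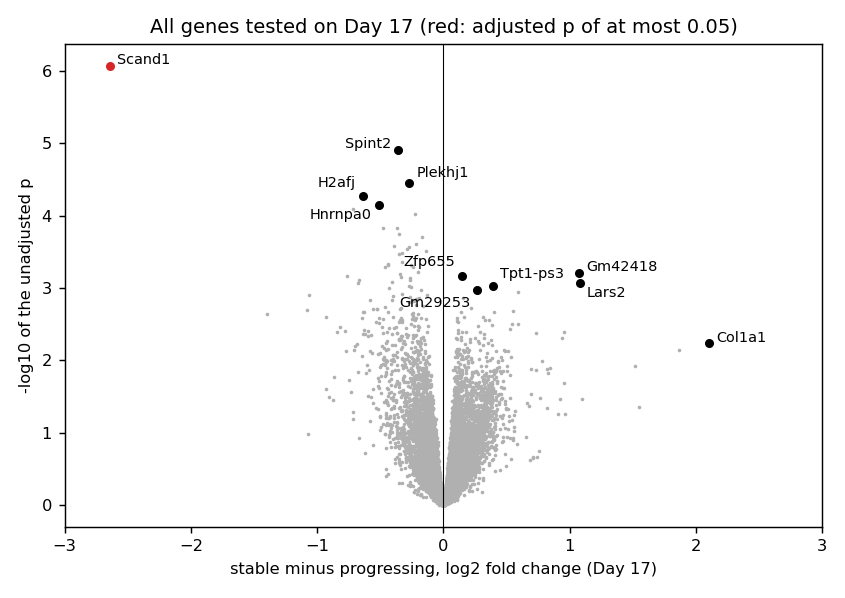
Each point is 1 of the 12198 genes tested on Day 17, with the log2 fold change of stable disease over progressing mice on the x axis and -log10 of the unadjusted p on the y axis. Scand1 (red, -2.64) is the 1 gene past an adjusted p of 0.05, and most other genes lie within 0.5 of 0.

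Scand1 encodes a small nuclear protein that consists of little more than a SCAN domain, through which zinc finger transcription factors pair. The gene lies at chr2:156311847-156312704 on the minus strand of GRCm38, and its longest coding transcript is short (759 bases) and rich in G and C (68.4%). Its level in stable disease ran from 0.083 over a median of 0.305 to 0.548 CPM. In progressing mice it ran from 0.286 over 1.27 to 5.35 CPM. All 15 stable libraries lay below the progressing median, 10 progressing libraries lay above the highest stable library, and the ranges overlapped. The difference was -2.64 ± 0.44 (SE, log2 scale, n = 15 and 15, 95% interval -3.53 to -1.75), at an adjusted p of 0.0104 in edgeR's test. These levels rest on few reads, 2 to 35 counts per stable library and 12 to 409 per progressing library. The difference of Scand1 on Day 17 was -2.72 (adjusted p = 0.00537) without library 104. In the 14 responders of the same day, Scand1 ran from 0.491 over 2.42 to 4.79 CPM.

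Scand1 was uneven among the progressing and responder libraries. Progressing libraries 105, 107, 109 and 110 held 196, 141, 409 and 200 counts, whereas libraries 104, 106 and 108 among them held 22, 52 and 53, libraries 111 to 113 held 70 to 84 and libraries 114 to 118 held 12 to 34. Responder libraries 96 to 101 and 103 held 79 to 449 counts, library 93 held 89, and the other 6 held 15 to 39. An order along the library numbers was not tested. Library numbers run in blocks of 1 group each, so such an order and a difference between the groups cannot be told apart.

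**Figure D2:**
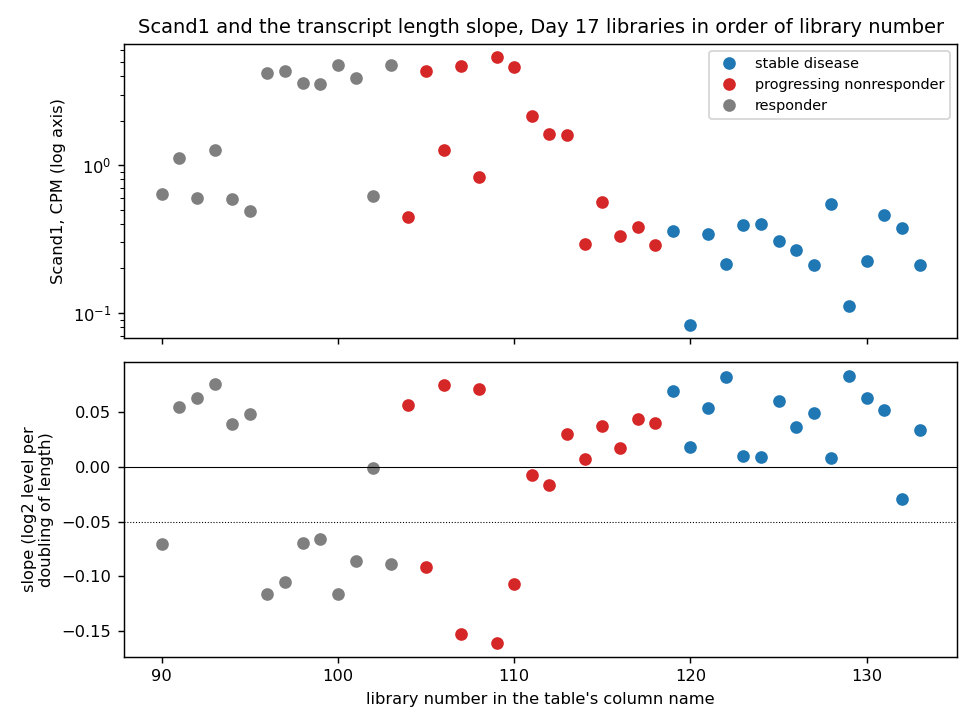
The upper panel plots Scand1 in CPM on a log axis, and the lower panel the slope of each library's log2 levels on log2 transcript length, for the 44 Day 17 libraries in order of library number. The 4 progressing libraries with the lowest slopes (-0.091 to -0.161) are the 4 with the most Scand1 among the 30 libraries compared.

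Libraries also differed in how their levels varied with transcript length. For each library, the log2 level of every gene relative to its mean over the day's libraries was regressed on log2 transcript length. The slope averaged 0.040 ± 0.032 (SD, n = 15) in stable disease and -0.011 ± 0.079 (n = 15) in progressing mice (permutation p = 0.0292, adjusted p = 0.102). No stable library, 4 progressing libraries and 8 of the 14 responder libraries had a slope below -0.05. The 4 progressing ones were libraries 105, 107, 109 and 110, the 4 with the most Scand1 of the 30. Among the responders the match was not complete, since library 90 had a slope of -0.071 with 24 counts of Scand1 and library 93 a slope of 0.075 with 89.

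Across genes, the difference between stable and progressing mice changed sign with length. The genes were split by length into 5 classes of like size. In the shortest class (204 to 1675 bases) the median log2 difference was -0.075, and 344 genes were lower against 21 higher at an unadjusted p under 0.05. In the longest class (4988 bases or more) the median was 0.044, with 21 lower against 262 higher. The slope is computed from the same levels, so as a covariate it removes such a gradient by construction. With it, the medians of these classes became 0.0094 and 1.7e-05, and the counts became 97 lower against 102 higher and 71 lower against 70 higher. Under that covariate Scand1 was at -1.45 (adjusted p = 0.398), and without the 4 libraries of low slope at -1.52 (adjusted p = 0.553). No gene was called in either fit, in which 897 and 666 genes had an unadjusted p under 0.05. A gradient of the same direction was present on Day 4 (medians of -0.144 in the shortest and 0.102 in the longest class), whereas the medians were -0.015 and 0.0028 on Day 9 and 0.014 and 0.0073 on Day 24. What sets the slope of a library was not tested.

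**Figure D3:**
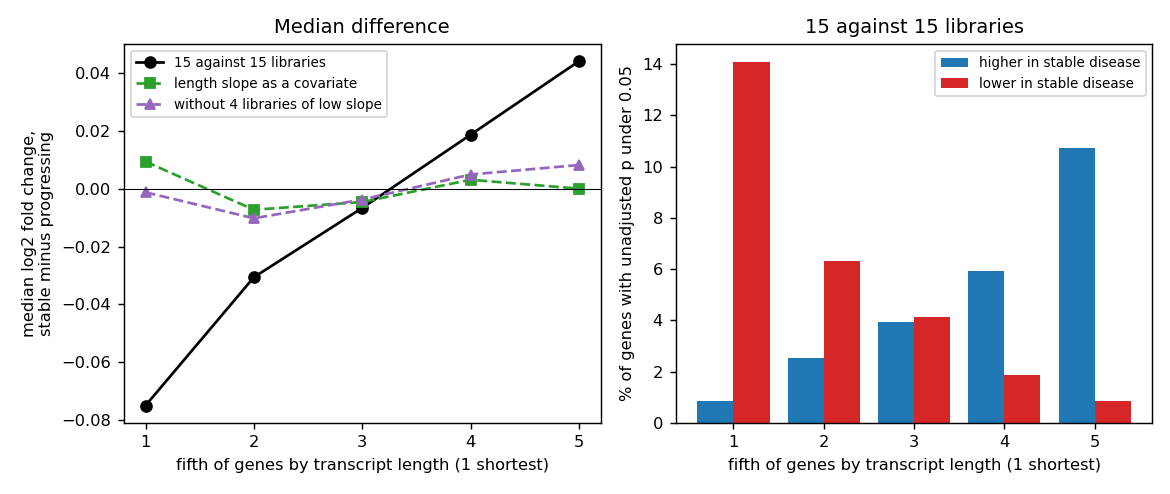
Genes were split into 5 classes by transcript length. The left panel gives the median log2 difference of each class in the comparison of all 30 libraries (black, -0.075 in the shortest and 0.044 in the longest class), with the slope as a covariate (green) and without the 4 libraries of low slope (purple). The right panel gives the percentage of genes of each class with an unadjusted p under 0.05, by direction.

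The next 4 genes by p among those lower in stable disease did not pass the adjusted threshold. Spint2, an inhibitor of serine proteases at the cell surface, ran from 1.66 over 2.03 to 2.56 CPM in stable disease and from 2.00 over 2.57 to 3.20 in progressing mice, with all 15 stable libraries below the progressing median (log2 difference -0.36 ± 0.07, SE, adjusted p = 0.076). Plekhj1, a protein with a phospholipid-binding domain, had a median of 3.32 CPM in stable disease and 4.00 in progressing mice (-0.27 ± 0.06, adjusted p = 0.142). The replacement histone gene H2afj had medians of 5.38 and 7.72 CPM (-0.64 ± 0.14, adjusted p = 0.164). Hnrnpa0, which encodes an RNA-binding protein of the heterogeneous ribonucleoprotein family, had medians of 9.33 and 12.1 CPM (-0.51 ± 0.11, adjusted p = 0.166). With the length slope as a covariate the adjusted p of these 4 genes lay between 0.474 and 0.671. Their differences were then -0.28 for Spint2, -0.19 for Plekhj1, -0.37 for H2afj and -0.24 for Hnrnpa0. DESeq2 called all 4 together with Scand1, among 11 genes in all, every one of them lower in stable disease. On the TPM scale limma called H2afj (adjusted p = 0.00308 with a pseudocount of 1 and 0.00102 with 0.1). The median of all genes was itself below 0 on that scale, at -0.10 and -0.23, and the fits did not correct for this shift.

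The 5 genes with the smallest p among those higher in stable disease were Gm42418, Zfp655, Lars2, Tpt1-ps3 and Gm29253, with adjusted p between 0.286 and 0.313. Gm42418, a non-coding gene model over ribosomal RNA sequence, ran from 2944 over 5419 to 24764 CPM in stable disease and from 1580 over 3393 to 8870 in progressing mice (1.07 ± 0.28). Lars2, the mitochondrial leucyl-tRNA synthetase, moved alongside it, with medians of 209 and 122 CPM (1.08 ± 0.29). The zinc finger gene Zfp655 differed little but evenly, with 14 of 15 stable libraries above the progressing median (0.15 ± 0.04). The pseudogene Tpt1-ps3 differed by 0.39 ± 0.11, and the transcript Gm29253 by 0.27 ± 0.08.

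The immune genes that the study follows in blood did not separate stable from progressing mice. Among the 11 genes it names for effector memory T cells and B cells, none was called, none had an unadjusted p under 0.05, and the median difference was -0.025. Cxcr3, a chemokine receptor of activated T cells, ran from 1.34 over 1.73 to 2.27 CPM in stable disease and from 1.04 over 1.56 to 2.43 in progressing mice (0.04 ± 0.09, 95% interval -0.15 to 0.23). Cxcr6, a receptor of tissue-homing effector cells, had medians of 1.66 and 1.48 CPM (0.14 ± 0.11, -0.095 to 0.37). The cytotoxic granule genes Gzmb (3.73 and 2.97 CPM, interval -0.30 to 0.35) and Nkg7 (7.03 and 7.01 CPM, -0.24 to 0.16) and the transcription factor gene Tbx21 (2.15 and 1.93 CPM, -0.29 to 0.28) had intervals on both sides of 0. So did Cx3cr1, a receptor of effector cells and patrolling monocytes (8.38 and 8.75 CPM, -0.31 to 0.27).

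The B cell genes had narrower intervals. Ms4a1, which encodes CD20, ran from 65.3 over 79.4 to 92.2 CPM in stable disease and from 61.7 over 79.3 to 96.5 in progressing mice (-0.03 ± 0.07, interval -0.16 to 0.11). The signalling chains Cd79a (97.8 and 96.1 CPM, -0.27 to 0.034) and Cd79b (73.3 and 73.1 CPM, -0.26 to 0.055) and the inhibitory receptor Cd22 (74.5 and 71.2 CPM, -0.18 to 0.12) were likewise within a 1.5-fold change over the whole interval. Pdcd1, which encodes PD-1 itself, was low in both groups, with medians of 0.210 and 0.184 CPM, so that its interval was wide (-0.49 to 0.64).

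**Figure D4:**
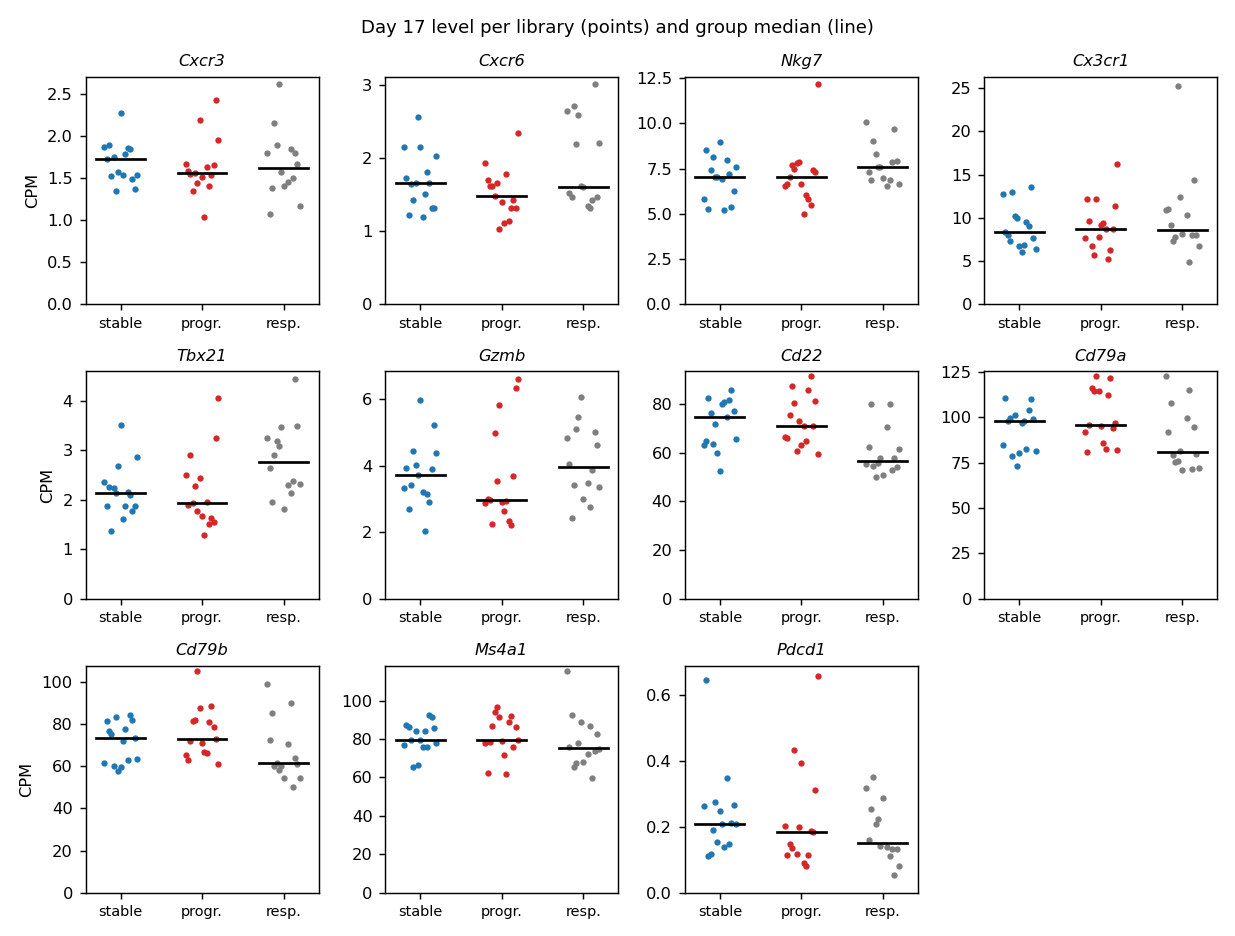
Level in CPM of 10 immune genes named by the study and of Pdcd1 in each Day 17 library (points), with the median of each group as a line, for stable disease, progressing non-responders and, for reference, responders. The stable and progressing points overlap for every gene shown.

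No member of any of 41 gene lists was called on Day 17 by edgeR's test, and DESeq2 called Gimap1 of the B cell signature. For T cells, 20 members of the receptor complex and its signalling chain had a median of -0.032, and the 2 with an unadjusted p under 0.05 were lower: Ptprcap (21.8 and 23.9 CPM, -0.16 ± 0.05, adjusted p = 0.374) and Cd2 (16.9 and 18.7 CPM, -0.11 ± 0.05, adjusted p = 0.473). With the length covariate they were at -0.089 and -0.061, and no gene of the list had an unadjusted p under 0.05. The medians of 12 naive T cell genes (-0.0070), 23 cytotoxic and effector genes (-0.021) and 16 NK cell markers (-0.044) were near the median of all genes. Klf2, which keeps naive lymphocytes in circulation, was the naive T cell gene with the smallest p (40.8 and 46.5 CPM, -0.25 ± 0.08, adjusted p = 0.381), and the covariate for length brought it to -0.061. Of the 158 measured genes of the study's effector memory signature, 3 were higher and 11 lower at an unadjusted p under 0.05, and the median was -0.00088. With the length covariate 5 were higher and 2 lower. The study picked that signature from single-cell data of other mice on Day 9. Beside these counts and those of the other lists, 4.8% of all genes were higher and 5.45% lower at that level. With the covariate 450 and 447 of the 12198 genes were higher and lower.

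For B cells, 24 mature B cell markers had a median of -0.059 (-0.011 with the length covariate), 21 of them below 0, and none had an unadjusted p under 0.05. The 130 measured genes of the study's B cell signature, picked from the same single-cell data, had a median of -0.032, with 2 higher and 13 lower at that level (-0.0021, with 1 higher and 5 lower, with the length covariate). Gimap1, a GTPase gene of lymphocyte survival, was at 14.2 to 17.0 CPM in stable disease and 15.4 to 19.3 in progressing mice, with all 15 stable libraries below the progressing median (-0.17 ± 0.04, adjusted p = 0.222). Ltb, which encodes lymphotoxin beta, had medians of 30.0 and 36.1 CPM (-0.24 ± 0.06, adjusted p = 0.264). Both belong to the B cell signature's members with the smallest p.

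Immunoglobulin constant genes had a median of -0.24 over 11 genes, and 4 light chain genes were lower at an unadjusted p under 0.05. Iglc2 ran from 12.1 over 16.9 to 21.2 CPM in stable disease and from 13.5 over 21.0 to 25.8 in progressing mice (-0.30 ± 0.10, adjusted p = 0.367), Iglc1 differed by -0.38 ± 0.13, Iglc3 by -0.35 ± 0.12 and Igkc by -0.24 ± 0.09. These transcripts are short, and with the length covariate the list's median was -0.11 and none of the 4 had an unadjusted p under 0.05. Ighm and Ighd, the heavy chains of naive B cells, were at -0.04 ± 0.07 and -0.08 ± 0.10. The 16 genes of the plasma cell programme had a median of -0.027.

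Genes of the red cell membrane and of platelets had higher medians than the other blood cell lists over all 30 libraries, but without library 120 the platelet median (0.14) lay below that of the neutrophil markers (0.18). All 22 genes of reticulocytes and the red cell membrane were above 0, with a median of 0.35, and 10 had an unadjusted p under 0.05, none of them called. The mitochondrial iron importer gene Slc25a37 ran from 180 over 289 to 663 CPM in stable disease and from 97.1 over 220 to 435 in progressing mice (0.46 ± 0.17, adjusted p = 0.41). Epb41, the membrane skeleton protein 4.1, had medians of 2003 and 1544 CPM (0.50 ± 0.19, adjusted p = 0.438). The 8 erythroid regulators had a median of 0.26 (0.15 without library 120), among them Gata1 (5.03 and 4.00 CPM, 0.36 ± 0.14) and Nfe2 (21.4 and 16.7 CPM, 0.26 ± 0.12). Of 22 platelet and megakaryocyte genes, 20 were above 0, with a median of 0.27. Itgb3, a chain of the fibrinogen receptor, had medians of 75.2 and 56.5 CPM (0.35 ± 0.15, adjusted p = 0.464), whereas Gp1bb, a chain of the von Willebrand factor receptor, was at 6.77 and 9.23 CPM (-0.43 ± 0.19, adjusted p = 0.467). Genes of 1 cell type are not independent of each other, so the number above 0 does not count separate results. Without library 120 the medians of the red cell and platelet lists were 0.25 and 0.14, and the haemoglobin genes themselves went from 0.18 to 0.059.

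The red cell difference had no constant sign over the days. The median of the 22 red cell genes was -0.54 on Day 4, -0.17 on Day 9, 0.35 on Day 17 and 1.27 on Day 24, and the last of these became 0.24 without the Day 24 libraries of the mice of libraries 121 and 118. That of the platelet genes was -0.62, 0.0030, 0.27 and 0.31 on the same days, the last 0.087 without those libraries.

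Myeloid genes gave no call. The 20 neutrophil markers had a median of 0.19, of which Slc2a3, a glucose transporter gene, had the smallest p (0.30 ± 0.15, adjusted p = 0.487). The summed level of the list had a median of 548 CPM in stable disease and 552 in progressing mice, and its highest values were 1598 and 707. Classical monocyte markers (median -0.011), non-classical ones (-0.059) and dendritic cell markers (0.012) had no member with an unadjusted p under 0.05. Among 35 interferon-induced genes the median was 0.093 (0.055 without library 104, 0.205 without the 4 libraries of low slope and 0.147 with the length covariate), and 2 were higher at that level (6 with the covariate): Ifit2 (14.8 and 12.6 CPM, 0.23 ± 0.10, adjusted p = 0.464) and Irf7 (132 and 111 CPM, 0.31 ± 0.14, adjusted p = 0.469). The checkpoint list had a median of 0.017 over 18 genes. Its member Cd274, which encodes the ligand PD-L1, had medians of 7.88 and 7.18 CPM (0.12 ± 0.08, adjusted p = 0.589).

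A pair of metabolic genes of the amino acid response came closest to a call among the listed genes that were higher in stable disease. Slc7a5, the large neutral amino acid transporter, ran from 13.9 over 25.1 to 57.2 CPM in stable disease and from 9.92 over 18.5 to 28.4 in progressing mice (0.59 ± 0.17, adjusted p = 0.319). Mthfd2, an enzyme of mitochondrial folate metabolism, ran from 5.63 over 12.1 to 21.4 CPM and from 4.35 over 7.29 to 15.2, with 14 of 15 stable libraries above the progressing median (0.59 ± 0.18, adjusted p = 0.356). The length covariate left both near these values, at 0.57 and 0.69. The list of 19 genes regulated with Atf4 had a median of 0.080 (0.038 without library 120), and 4 of them were higher and none lower at an unadjusted p under 0.05.

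The housekeeping lists of short transcripts lay below 0. The median was -0.088 for 77 cytosolic ribosomal proteins, -0.089 for 40 respiratory chain and ATP synthase genes and -0.079 for 31 ubiquitin and proteasome genes. With the length covariate these medians became 0.080, 0.033 and 0.015. In the spliceosome list 33 of 37 genes were below 0 (median -0.070), 9 were lower and 1 higher at an unadjusted p under 0.05, and the mean log2 level of the list was above the progressing median in 1 of the 15 stable libraries. Its core component Snrpf had medians of 2.22 and 2.53 CPM (-0.33 ± 0.11, adjusted p = 0.373) and its splice site recognition factor U2af1 4.38 and 4.98 CPM (-0.19 ± 0.06, adjusted p = 0.38). With the covariate the list's median was -0.033, with 3 lower and 1 higher.

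Genes of tissues other than blood were uneven between libraries. Of the list of lacrimal, muscle and skin genes 7 were tested, and 4 of them, the connective tissue genes Col1a1, Col1a2, Col3a1 and Dcn, had an unadjusted p under 0.05. Col1a1, a chain of type I collagen, was at 9.16, 26.4, 4.68 and 6.56 CPM in the stable libraries 119, 120, 121 and 122, between 0.012 and 1.42 in the other 11 stable libraries, and between 0.13 and 2.92 in progressing mice. Those 4 are the stable mice with ear tags of 4 digits, and the 2 highest progressing libraries, at 2.92 and 2.69 CPM, are also from mice with such tags. The difference of Col1a1 was 2.10 ± 0.71 (adjusted p = 0.382) over all mice, 1.28 without library 120 and -0.03 among mice with 3-digit tags. The epithelial and keratinocyte markers summed to 5.96 to 10.1 CPM in stable disease and 5.23 to 9.07 in progressing mice, and 5 of the 23 were tested, with a median of -0.061. The part of these tissue genes in the other differences was not tested.

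The contrast was then set beside the other days, for which the same mice gave 89 libraries. No gene was called between stable and progressing mice on Day 4, 9 or 24 (0% of 12501, 12425 and 12169 genes in edgeR's test), although 3105, 880 and 829 genes had an unadjusted p under 0.05. The test of the difference itself, in 1 fit over all 4 days, called 4 genes between Days 17 and 9 (0.0296% of 13498), 13 between Days 17 and 24 (0.0963%) and 296 between Days 17 and 4 (2.19%). With the mouse as a replicate block these counts were 6, 5 and 124, of which 2, 4 and 121 were among the genes called without it. Single animals weighed on these counts, which were 10, 14 and 664 without the mouse of library 104 and 5, 4 and 1339 without the Day 24 library of the mouse of library 121. Without the Day 24 library of the mouse of library 118 they were 4, 11 and 242.

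Scand1 was called in all 3 tests. The stable minus progressing difference on Day 17 was lower than that of Day 4 by 2.57 (adjusted p = 0.00757), than that of Day 9 by 3.17 (4.02e-05) and than that of Day 24 by 3.75 (2.09e-06), and it was called with the block as well (0.0164, 9.4e-05 and 0.000337). The median level in stable disease was 0.586, 1.09, 0.305 and 0.309 CPM on Days 4, 9, 17 and 24, and in progressing mice 0.704, 0.770, 1.27 and 0.240 CPM. The progressing median of Day 17 was thus the highest of the 8, followed by that of stable disease on Day 9.

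Trim14, an adaptor of antiviral signalling, was the other gene called against both Day 9 and Day 24. Its difference was -0.36 on Day 17, 0.17 on Day 9 and 0.13 on Day 24, which gave changes of -0.52 (adjusted p = 0.00384) and -0.49 (0.00888). The remaining 2 genes called against Day 9 were Ctsk and Mmp13, proteases of connective tissue that were chosen after their values were seen. They were near 0 in the median library of both groups on both days (0.039 to 0.17 CPM), and with the block their adjusted p was 0.849 and 0.653. H2afj was among the 13 genes called against Day 24 (-0.96, adjusted p = 0.0368, 0.111 with the block), and all 13 changes were negative. Most of these calls, that of H2afj included, depended on 1 library. Without the Day 24 library of the mouse of library 121, only 4 genes were called: Scand1, Gm22133, Trim14 and Snhg3, all with negative changes.

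Against Day 4, 224 changes were positive and 72 negative. Of the 15 mitochondrially encoded genes tested 7 were called, all upward (4 with the block), against 2.19% of all genes. Among the 4 were the complex I subunit genes mt-Nd1 (-0.77 on Day 4, 0.011 on Day 17, adjusted p = 0.018), mt-Nd4 and mt-Nd5. In the list of glycolysis and hypoxia genes 9 of 20 were called upward (5 with the block), and its median went from -0.24 on Day 4 to 0.061 on Day 17. Of 77 ribosomal protein genes 8 were called upward (3 with the block), from a median of -0.50 to -0.088. Their transcripts are short (median of 914 bases), and the median of the shortest length class went from -0.144 on Day 4 to -0.075 on Day 17. The part of transcript length in these changes was not tested. Hnrnpa0 was called downward (0.12 on Day 4, -0.51 on Day 17, adjusted p = 0.018, 0.0153 with the block), as was Irf2bp2, a transcriptional co-repressor (0.41 and -0.09, adjusted p = 0.00757). Gm42418 and Lars2 were called upward, from -0.69 and -0.60 on Day 4 to 1.07 and 1.08 on Day 17 (adjusted p = 0.0229 and 0.0243). Of the study's effector memory signature 14 of 158 genes were called upward against Day 4 and none downward (6 with the block), and of its B cell signature 2 of 130 upward and 1 downward, with the block as well. Beside these, the median difference between the contrasts of Days 17 and 4 was 0.93 for the 22 red cell membrane genes and 0.99 for 5 haemoglobin genes, none of them called, and 0.89 for the 22 platelet genes, 2 of them called (none with the block). Their part in the other changes was not tested. Of the 11 genes named by the study none was called against Day 4, 9 or 24.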

How the data were processed

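Blood from a retro-orbital bleed went into TRIzol, and SMARTer libraries of its polyadenylated RNA were sequenced. The authors aligned reads to mm10 and deposited estimated counts per gene, which need not be whole, and TPM per gene symbol. The submitters' processing notes name STAR, and the counting tool and annotation are not given in the sources used here. All 55450 gene IDs matched GENCODE M21, which gave positions and transcript lengths (the longest coding transcript). Counts were rounded, filtered (filterByExpr), scaled (TMM) and tested with edgeR 4.0.16 in R 4.3.3 (glmQLFit, glmQLFTest, Benjamini-Hochberg adjustment over all genes tested), after the code had been tested on simulated data. Stable disease was always the numerator. Printed levels are CPM after 1 TMM scaling of all 178 libraries, given as lowest, median and highest. Library measures were compared with two-sided permutation tests of 100000 resamples.

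The 41 lists, the members and the comparison were chosen with earlier results of these data known. Named genes were the called genes or, with fewer than 5 in a direction, the 5 with the smallest p, the 2 with the smallest p of each list, and the study's genes. The length slope was added after seeing the data. The libraries of 1 mouse pair by its ear tag, and deviations of the same mouse on Day 17 and another day correlated at -0.051 to 0.075 on average. Alternatives used DESeq2 1.42.0, limma 3.58.1 on log2 TPM, other filters and scalings, ear tag digits, and leaving out libraries. No 2 libraries held identical values. Of the genes that the study names, 1 is not reported singly here.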

Additional observations from a re-analysis of the deposited data

Results flagged for a closer look

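The difference between stable and progressing mice itself differed between Day 17 and the other days for some genes, in a test of that difference. It did so for 296 genes against Day 4, for 4 genes against Day 9 and for 13 genes against Day 24, and Scand1 was among them each time. Outliers within a group were not searched for, because every group held 14 or 15 libraries.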

How the results depend on the processing

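The count of 1 gene on Day 17 stayed at 1 without library 104, without library 118, without both, with haemoglobin genes removed before scaling, with ear tag digits as a covariate, with responders in the fit and with a 1.5-fold threshold. It was 11 with DESeq2, 3 when a single count anywhere sufficed to keep a gene, 2 with upper quartile scaling, 1 with limma on log2(TPM + 1) (H2afj, not Scand1) and 2 on log2(TPM + 0.1) (H2afj and Scand1). It was 0 for genes with at least 10 counts in every library, for 3-digit tags, for 4-digit tags, with the length slope as a covariate and without the libraries of low slope, and 2 without library 120 (the last 3 chosen after seeing the data). Leaving out each library in turn gave 1 to 3 genes, with 3 without progressing library 106 (Scand1, Spint2 and Plekhj1) and 2 without stable library 120, 124 or 132. The difference of Scand1 on Day 17 lay between -2.73 and -2.41 in these fits. Scand1 was not called with limma on log2(TPM + 1) (adjusted p = 0.102), in 3-digit tags (-2.58, 0.214) or in 4-digit tags (-2.87, 0.988). It was left untested with at least 10 counts in every library. The TPM scale moved the median of all genes to -0.10 and -0.23 with pseudocounts of 1 and 0.1, and 2945 of 2953 genes with an unadjusted p under 0.05 were then lower at the first of these. For Days 4, 9 and 24 fewer alternatives were run. These were the filter that a single count passes, leaving out the mouse of library 104 and, for Day 24, leaving out that day's libraries of the mice of libraries 121 and 118. None of these gave a call.

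The number of genes whose difference changed from Day 4 was 124 with mouse as a replicate block, 1339 without the Day 24 library of the mouse of library 121 and 664 without the mouse of library 104. Against Day 9 it was 10 without the latter. Against Day 24 it was 5 with the replicate block and 4 without the Day 24 library of the mouse of library 121; the causes were not tested. Leaving out the Day 24 library of the mouse of library 118, chosen after seeing the data, gave 242, 4 and 11 against Days 4, 9 and 24. Low genes such as Scand1 rest on few counts, and p-values measure the spread between mice of 1 cohort.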
